A study of Arabidopsis thaliana with 28 samples.

Results

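The genes described here encode heat shock proteins and chaperones of Arabidopsis thaliana, read in dissected root tips. A list of 43 loci was drawn up from the small heat shock proteins (small HSPs), HSP60, HSP70, HSP90, HSP100 and their co-chaperones, and a locus was a member if a probe set of the ATH1 array was paired with it and with no other gene in the platform annotation. There were 12 such genes, out of 13286 single genes measured on the array, each read by 1 probe set. They comprised 6 of 14 small HSPs, 2 of 13 HSP70 genes and 4 of 5 co-chaperones. No such probe set was available for any of the 7 HSP90, 3 HSP100 or 1 HSP60 loci, for 8 small HSPs, for 11 HSP70 genes or for the co-chaperone BAG6, so these 31 loci were not measured. The classical heat-induced markers HSP101, HSP17.4 and HSP18.2 were among them.

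Chaperones bind unfolded or newly made proteins. Small HSPs hold unfolding proteins without using ATP, HSP70 proteins bind and release short exposed stretches in cycles driven by ATP, and HSP90 completes the folding of selected client proteins. Co-chaperones steer these cycles: Hop proteins bind HSP70 and HSP90 at once and pass clients between them, and Fes1-type factors help HSP70 to exchange its nucleotide. In plants many of these genes are switched on by heat, and several are also known to respond to oxidative stress, while constitutive HSP70 and Hop proteins are present in growing tissue without stress.

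Seedlings were of ecotype Columbia-0 and were described as 5 days old, counted from germination in one label and from imbibition in another. They were moved onto MS medium containing 1 mM H2O2, or served as controls on MS medium, where the labels do not say whether control seedlings were moved, and the elongation zone (EZ) and meristematic zone (MZ) of the root were then cut apart by hand under a microscope. Each zone was sampled on H2O2 at 1, 3 and 6 h and on control medium at 0, 1, 3 and 6 h, which gave 14 groups. Every group had 2 biological replicates of 30 roots each, so 28 arrays were used and each p-value rests on 2 replicates per group. A section holds many cell types, and in such bulk RNA fewer cells of a type cannot be told apart from less of a transcript per cell.

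Signals were linear array intensities that the authors had scaled so that the trimmed mean was 250 on every array. The 2 arrays of a group correlated at 0.965 to 0.987, and 24.5% to 31.1% of probe sets on an array had a signal under 16. Markers were then read in each zone. The lists were chosen with earlier results of these data known, so they are no independent check of the zone labels. All 4 measured genes, of 12 on the dividing-cell list, were lower in the EZ. Their summed signal was 178 to 408 in the EZ on control medium against 1092 to 2139 in the MZ. All 5 measured genes of the elongating-cell list were higher in the EZ, with summed signals of 11880 to 20219 in the EZ and 312 to 1918 in the MZ. The gene AT4G30170 held the largest share of both sums. Both root hair genes measured were higher in the EZ, and no marker on the lists for root cap, endodermis, xylem or green tissue was measured. The log2 ratio of the 3' to the 5' GAPDH probe set, a sign of RNA length, was −0.38 to 0.32 on EZ arrays and 0.17 to 0.77 on MZ arrays of control roots. It was −0.20 to 0.13 in the EZ and 0.39 to 0.69 in the MZ on H2O2. The part of cell type and RNA length in the zone differences below was not tested.

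The members differed in how far their signals stood above the bottom of the scale. The peroxisomal small HSP AT5G37670 was under 16 on 16 of 28 arrays, ATHSP22.0 on 12, AT4G21870 and AT5G51440 on 8 each, and AT1G53540 on 6. Hsp70-2 was under 16 on 1 array, and AT2G29500, AT3G09440, Fes1A and the 3 Hop genes were above it on all 28. Signals near 16 are squeezed on the log2(signal + 16) scale used for the tests, so fold changes of the dim small HSPs are understated. The plot of signals by gene shows the small HSPs near the foot of the scale and the co-chaperones above it, although signals of different probe sets cannot be set against each other as transcript levels.

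**Figure D1:**
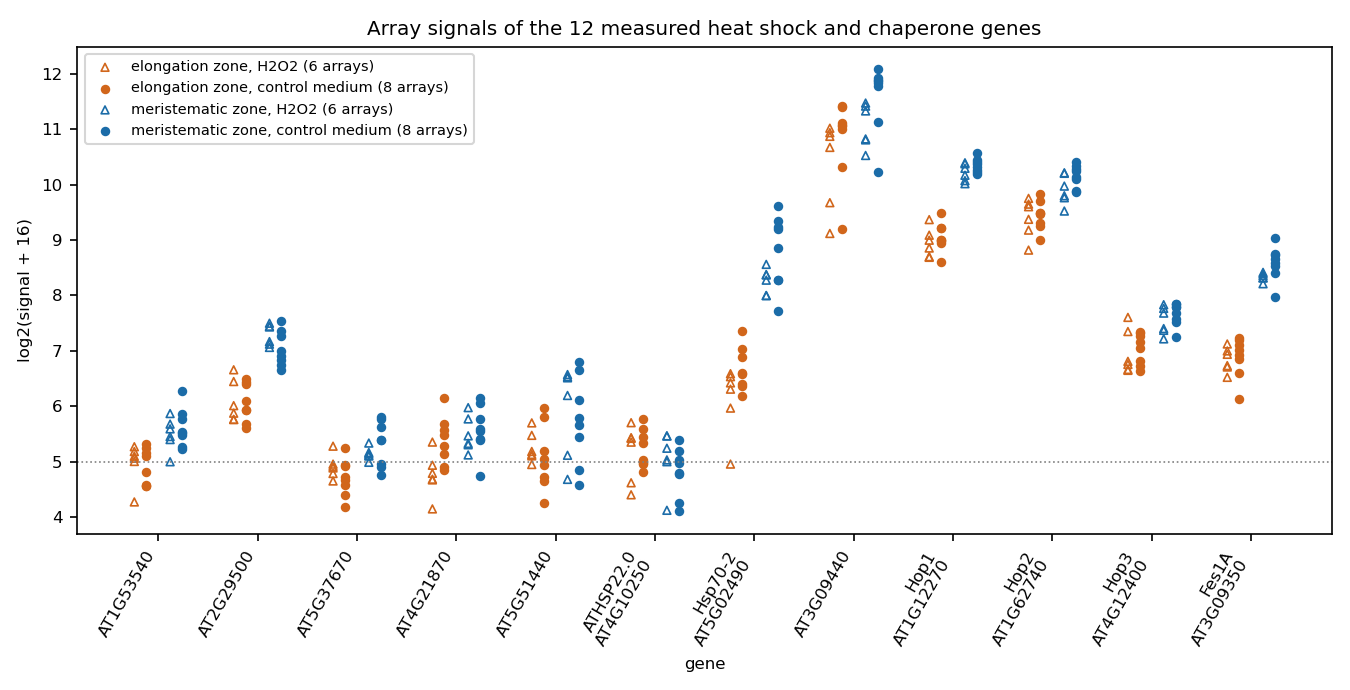
Signal of each of the 12 genes on every array, as log2(signal + 16), with the elongation zone in orange left of the meristematic zone in blue, H2O2 as open triangles and control medium as filled circles; the dotted line marks a signal of 16. Hsp70-2, Hop1, Fes1A and AT2G29500 had no elongation zone array as high as the lowest meristematic zone array.

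The first comparison asked how the members differed between the zones of roots that had not met H2O2. Roots on control medium had 10 of the 12 members lower and 0 higher in the EZ at an adjusted p under 0.05. This call was made for 58.3% of all probe sets, 26% as higher and 32.3% as lower. The median log2 fold change, EZ over MZ, was −0.71 over the members and −0.02 over all probe sets. The fall was steepest for Hsp70-2, at 4.42-fold, and for the HSP70 co-chaperones Fes1A and Hop1.

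Among the small HSPs, the cytosolic class I protein AT2G29500 showed the clearest zone difference. Its signal on control medium was 32.4 to 73.5 (median 48.8) over 8 EZ arrays and 85.2 to 169 (median 108) over 8 MZ arrays. No EZ array reached the lowest MZ array, and the gene was lower by 1.96-fold (log2 −0.97 ± 0.15 SE, adjusted p = 1.18e-05). AT1G53540, another class I small HSP, had signals of 7.51 to 23.8 (median 15.2) in the EZ and 21.3 to 61.2 (median 30.2) in the MZ, a log2 difference of −0.70 ± 0.15 (adjusted p = 4.77e-04). Its groups overlapped on control medium, and its EZ signals sat near the bottom of the scale.

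The small HSPs of the organelles did not share 1 direction. AT5G51440, which is directed to mitochondria, had 2.99 to 46.4 (median 15.8) in the EZ and 7.92 to 94.9 (median 37.0) in the MZ, lower by 0.67 ± 0.14 on the log2 scale (adjusted p = 2.17e-04). ATHSP22.0, the small HSP of the endoplasmic reticulum, had 12.2 to 38.6 (median 20.4) in the EZ and 1.14 to 25.9 (median 13.6) in the MZ. This was the only member with a positive estimate (log2 0.42 ± 0.19), and it did not pass the test (adjusted p = 0.0688). The call came up with any of 5 single arrays left out (adjusted p = 0.0359 to 0.0467), namely replicate 1 of the MZ at 0, 3 or 6 h, replicate 2 of the EZ at 0 h or replicate 1 of the EZ at 3 h. AT5G37670 had 2.16 to 21.7 (median 9.92) in the EZ and 11.2 to 39.8 (median 25.8) in the MZ. It was lower in the EZ by 0.62 ± 0.16 (adjusted p = 0.00243), although 7 of its 8 EZ signals were under 16. The small HSP AT4G21870 did not pass, with 12.7 to 55.0 in the EZ, 10.8 to 55.1 in the MZ and a log2 difference of −0.20 ± 0.16 (adjusted p = 0.316).

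Both HSP70 genes were lower in the EZ. Hsp70-2, a cytosolic HSP70, had 56.3 to 149 (median 80.1) in the EZ and 194 to 769 (median 509) in the MZ. The groups did not overlap, and the log2 difference was −2.14 ± 0.16 (adjusted p = 2.07e-10). The gene lies beside HSC70-1, a near relative that was not measured, so a share of cross-hybridised signal in its probe set cannot be told apart. AT3G09440, a cytosolic HSP70 of the constitutive type, had 569 to 2727 (median 2129) in the EZ and 1180 to 4328 (median 3678) in the MZ. It was lower by 1.70-fold (log2 −0.77 ± 0.15, adjusted p = 1.27e-04), with overlap that came from the 1 h arrays described further on. Since 11 of the 13 listed HSP70 genes were not measured, cross-hybridised signal cannot be told apart for AT3G09440 either.

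All 4 co-chaperones measured were lower in the EZ. Fes1A, the exchange factor of cytosolic HSP70, had 54.0 to 134 (median 109) in the EZ against 236 to 508 (median 380) in the MZ, lower by 3.26-fold (log2 −1.71 ± 0.12, adjusted p = 1.32e-10). Hop1 had 372 to 705 (median 494) in the EZ against 1155 to 1513 (median 1285) in the MZ, lower by 2.46-fold (log2 −1.30 ± 0.10, adjusted p = 2.20e-10). Neither gene's groups overlapped. Hop2 had 497 to 894 in the EZ and 914 to 1350 in the MZ, without overlap (log2 −0.71 ± 0.11, adjusted p = 8.08e-06). Of the members, 5 had every EZ array below every MZ array on control medium, as did 20.5% of all probe sets. Hop3, the Hop gene best known for its heat response, had 83.7 to 146 in the EZ and 135 to 213 in the MZ, with overlap (log2 −0.62 ± 0.12, adjusted p = 1.32e-04). The 3 Hop genes therefore all fell, by 1.54-fold to 2.46-fold.

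The same contrast on H2O2 used other arrays, 6 in each zone, and shared none with the control comparison. Again 10 of 12 members were lower in the EZ and 0 were higher, where 56.5% of all probe sets were called, 23.6% as higher and 32.9% as lower. The median log2 fold change was −0.68 over the members and −0.07 over all probe sets. Of the members, 9 were lower on both media, a call made for 29.5% of all probe sets. The difference between the zones in the H2O2 response, which compares these contrasts at 1, 3 and 6 h, passed for 0 members and for 0% of all probe sets.

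Hsp70-2 on H2O2 had 15.0 to 80.1 (median 66.4) in the EZ and 239 to 361 (median 304) in the MZ, a log2 difference of −2.13 ± 0.18 (adjusted p = 2.44e-09). Fes1A had 75.8 to 123 (median 98.4) in the EZ and 280 to 325 (median 308) in the MZ (log2 −1.50 ± 0.14, adjusted p = 1.02e-08). Hop1 had 396 to 645 (median 471) in the EZ and 1020 to 1329 (median 1188) in the MZ (log2 −1.27 ± 0.11, adjusted p = 3.31e-09). AT2G29500 had 38.2 to 84.9 (median 45.5) in the EZ and 118 to 165 (median 142) in the MZ (log2 −1.20 ± 0.18, adjusted p = 5.36e-06). These 4 genes lay apart without overlap on H2O2, as did 24.2% of all probe sets with the EZ below. AT4G21870 was lower in the EZ on H2O2, with 1.70 to 24.8 (median 10.6) in the EZ against 18.8 to 46.9 (median 26.2) in the MZ. Its log2 difference was −0.73 ± 0.19 (adjusted p = 0.00231), and 5 of its 6 EZ signals were under 16. AT5G51440, AT3G09440, Hop3, Hop2 and AT1G53540 were also lower, with log2 differences of −0.68, −0.68, −0.57, −0.52 and −0.52, and their ranges overlapped. AT5G51440 had 14.8 to 35.9 (median 19.7) in the EZ and 9.61 to 79.1 (median 66.2) in the MZ, and AT3G09440 had 540 to 2058 (median 1736) in the EZ and 1458 to 2825 (median 2178) in the MZ. Hop2 had 435 to 846 (median 704) in the EZ and 720 to 1171 (median 932) in the MZ. Hop3 had 84.2 to 178 (median 94.0) in the EZ and 133 to 212 (median 171) in the MZ. AT1G53540 had 3.31 to 22.5 (median 17.8) in the EZ and 15.9 to 42.4 (median 30.0) in the MZ. AT5G37670 (log2 −0.23 ± 0.19, adjusted p = 0.330) and ATHSP22.0 (log2 0.10 ± 0.22, adjusted p = 0.741) did not pass.

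**Figure D2:**
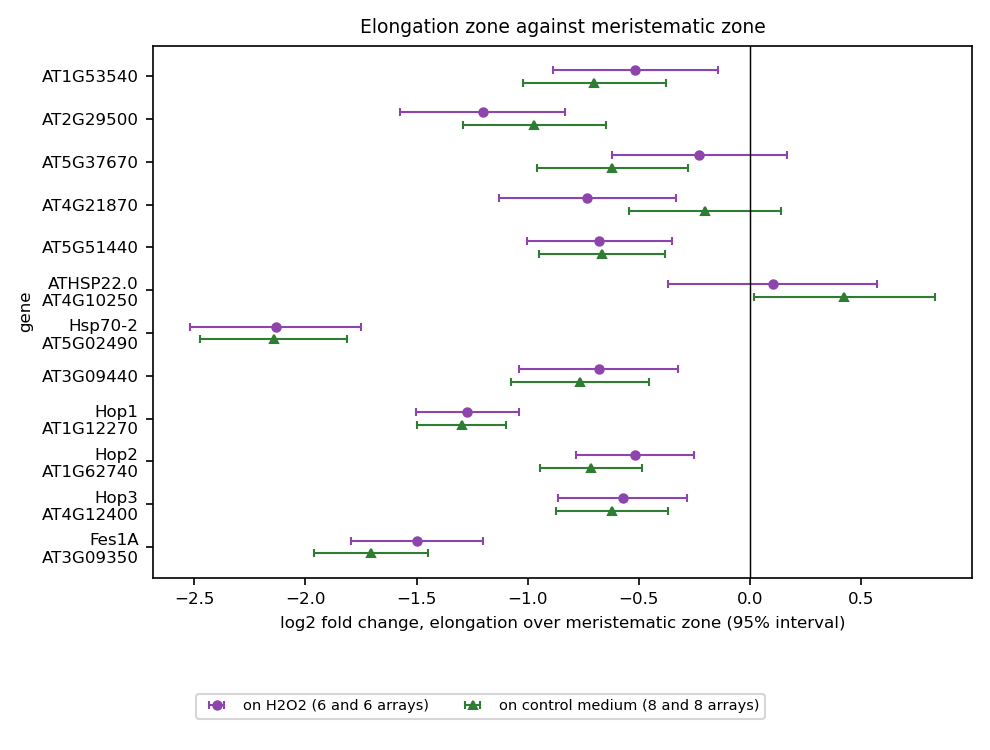
Log2 fold change of each gene, elongation over meristematic zone, with 95% intervals, on H2O2 (circles, 6 and 6 arrays) and on control medium (triangles, 8 and 8 arrays). Hsp70-2 lies lowest at −2.13 on H2O2 and −2.14 on control medium, and ATHSP22.0 is the only gene right of 0 on both.

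Sorted by condition, the zone difference was most regular for 5 genes. Hop1, AT2G29500, Fes1A, Hop3 and Hsp70-2 had both EZ arrays below both MZ arrays in all 7 conditions, a pattern held by 22.7% of all probe sets. Hop2 had it in 6 conditions, AT1G53540, AT3G09440 and AT5G51440 in 5, AT5G37670 in 4 and AT4G21870 in 3. ATHSP22.0 had it in 1 condition and the opposite order in 3. Over all 14 arrays of each zone, 4 members had no overlap with the EZ below, namely Hsp70-2, Fes1A, Hop1 and AT2G29500, as did 18% of all probe sets.

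How many members were called depended on the scaling of the arrays. With arrays centred on their medians, the median zone difference of all probe sets moved to 0.26 on control medium and 0.28 on H2O2. The split of calls then became 10595 higher and 5559 lower on control medium, in place of 5910 higher and 7349 lower. On H2O2 it became 10098 higher and 5232 lower, in place of 5367 higher and 7475 lower. Under this centring only Hsp70-2, Fes1A, Hop1 and AT2G29500 were still called lower on H2O2. On control medium AT5G37670 was lost (log2 −0.34, adjusted p = 0.070) and ATHSP22.0 was called higher (log2 0.70, adjusted p = 0.00349). The estimates of AT4G21870 on control medium and AT5G37670 on H2O2, neither of them called, changed sign. Quantile normalisation took the H2O2 zone calls of AT1G53540 (adjusted p = 0.0579) and Hop3 (adjusted p = 0.0688). AT1G53540 also lost that call without replicate 1 of the EZ at 1 h (adjusted p = 0.0791), of the MZ at 1 h (adjusted p = 0.0745) or of the MZ at 3 h (adjusted p = 0.0597). Hsp70-2, Fes1A, Hop1 and AT2G29500 stayed lower in both zone comparisons under every setting that was run.

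The second comparison asked whether 1 mM H2O2 changed the members within a zone. Averaged over 1, 3 and 6 h, 0 of 12 genes passed the test in the EZ and 0 of 12 in the MZ. H2O2 called few genes of any kind, 0.506% of all probe sets in the EZ and 0.259% in the MZ. At an unadjusted p under 0.05 there were 2 members in the EZ, of 2025 probe sets in all, and 1 member in the MZ, of 1314. Median log2 fold changes of the members, H2O2 over control, were −0.02 in the EZ and −0.11 in the MZ, beside −0.03 and 0.00 over all probe sets. None of the small HSPs was called higher on H2O2, and neither was the heat-responsive Hop3.

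The 95% intervals show what sizes of response these arrays left possible. Over the 12 members they ran from −0.95 to 0.55 on the log2 scale in the EZ and from −0.80 to 0.69 in the MZ. Hop1 was held most tightly, with −0.24 to 0.23 in the EZ and −0.31 to 0.15 in the MZ. Hop3 had −0.31 to 0.27 in the EZ and −0.40 to 0.18 in the MZ. For the dim ATHSP22.0 the interval was −0.59 to 0.35 in the EZ and −0.35 to 0.59 in the MZ, and compression at low signal adds to it.

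**Figure D3:**
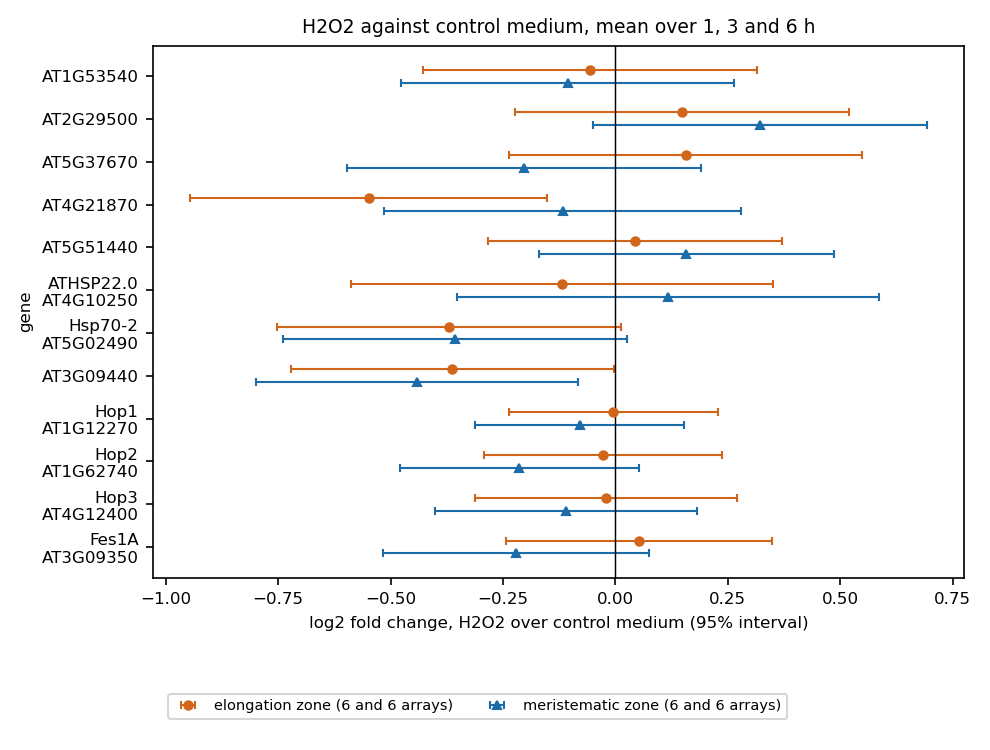
Log2 fold change of each gene, H2O2 over control medium, as the mean over 1, 3 and 6 h with 95% intervals, in the elongation zone (circles) and the meristematic zone (triangles), 6 and 6 arrays each. AT3G09440 lies left of 0 in both zones at −0.36 and −0.44, and AT2G29500 right of 0 at 0.15 and 0.32, and neither passed the adjusted test.

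The largest estimates belonged to the HSP70 genes, AT4G21870 and AT2G29500. AT4G21870 in the EZ had 1.70 to 24.8 (median 10.6) on H2O2 and 12.7 to 55.0 (median 21.0) on control medium (log2 −0.55 ± 0.19, adjusted p = 0.338). AT3G09440 in the MZ had 1458 to 2825 (median 2178) on H2O2 and 1180 to 4328 (median 3635) on control medium (log2 −0.44 ± 0.17, adjusted p = 0.671). These ranges overlapped.

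AT3G09440 in the EZ had 540 to 2058 (median 1736) on H2O2 and 569 to 2727 (median 2129) on control medium (log2 −0.36 ± 0.17, adjusted p = 0.554). Hsp70-2 had log2 differences of −0.37 ± 0.18 in the EZ (adjusted p = 0.583) and −0.36 ± 0.18 in the MZ (adjusted p = 0.917). AT2G29500 had a positive estimate in the MZ, with 118 to 165 (median 142) on H2O2 and 85.2 to 149 (median 101) on control medium (log2 0.32 ± 0.18, adjusted p = 0.939). The H2O2 effect averaged over both zones, a contrast added after the values were seen, passed for 0 of 12 members (background 0.932%). Its lowest estimate was that of AT3G09440 (log2 −0.40 ± 0.12, adjusted p = 0.174). The estimate was log2 −0.50 without the 1 h control replicate 2 of the EZ and −0.48 without that of the MZ. Each was the lowest control array of AT3G09440 in its zone, so leaving it out pushes the estimate down. The lack of a call for AT3G09440 in this contrast thus depended on single arrays.

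AT3G09440 was low at 1 h on both media, so its later arrays were also read alone. At 3 h in the EZ AT3G09440 had 1615 and 1857 on H2O2 against 2727 and 2128 on control medium, and at 6 h it had 2058 and 1945 against 2696 and 2131. The MZ values were 2719 and 1797 on H2O2 against 4328 and 3851 on control medium at 3 h, and 2825 and 2558 against 3753 and 3517 at 6 h. All 4 H2O2 arrays of 3 and 6 h thus lay below all 4 control arrays in each zone. AT4G21870 had this order too in the EZ, with 1.70 to 11.6 on H2O2 and 12.7 to 31.3 on control medium, and no other member had it in either zone. H2O2 arrays were below without overlap in this way for 2.89% of all probe sets in the EZ and 2.04% in the MZ.

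Fitted over 3 and 6 h alone, a contrast also added after the values were seen, 0 of 12 members passed in either zone (background 0.448% in the EZ and 0.308% in the MZ). AT3G09440 had log2 differences of −0.37 ± 0.21 in the EZ (adjusted p = 0.602) and −0.66 ± 0.21 in the MZ (adjusted p = 0.337). Hsp70-2 had −0.63 ± 0.22 in the EZ (adjusted p = 0.329) and −0.68 ± 0.22 in the MZ (adjusted p = 0.378). The 1 h control arrays numbered 2 held the lowest control signals of AT3G09440 in each zone. Leaving both out raises its control mean, and its H2O2 estimate over all times became log2 −0.55 in the EZ and −0.59 in the MZ. These arrays were singled out by the values of the gene itself, so no conclusion on H2O2 is drawn from them. Summed signals of the dividing-cell list at 3 and 6 h were 133 to 187 on H2O2 and 178 to 238 on control medium in the EZ. The MZ sums were 989 to 1306 on H2O2 and 1092 to 1545 on control medium. The elongating-cell sum in the MZ was 1045 to 1671 on H2O2 and 932 to 1036 on control medium at 3 and 6 h, without overlap. This sum mainly followed 1 gene, AT4G30170, with a mean of 749 over all MZ control arrays against 147 for EXPB1, the next brightest. Over 1, 3 and 6 h the H2O2 estimates in the MZ were log2 0.23 for AT4G30170 and −0.01 to 0.09 for the others. None of the 5 genes was called on H2O2 in the MZ, also at 3 and 6 h alone. In the EZ the elongating-cell sum was 17036 to 19545 on H2O2 and 16123 to 20219 on control medium. The root hair sum was 68.6 to 149 on H2O2 and 110 to 152 on control medium in the EZ, and 19.2 to 35.2 on H2O2 and 21.0 to 51.1 on control medium in the MZ. Whether these sums bear on the HSP70 values was not tested.

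At single times, with 2 arrays against 2, 0 members passed at 1, 3 or 6 h in either zone. Among all probe sets 0.0308%, 0.136% and 0.0572% were called at 1, 3 and 6 h in the EZ, and 0%, 0.0396% and 0.136% in the MZ. The largest estimate was that of Hsp70-2 at 3 h in the EZ, where it had 46.5 and 15.0 on H2O2 and 80.9 and 68.4 on control medium (log2 −1.04 ± 0.32, adjusted p = 0.496). The H2O2 array at 15.0 was the lowest of the 28 for this gene. At 6 h in the MZ AT5G51440 had 75.3 and 76.6 on H2O2 and 53.2 and 34.5 on control medium (log2 0.64 ± 0.27, adjusted p = 0.542). AT2G29500 at the same point had 156 and 158 on H2O2 and 91.6 and 97.8 on control medium (log2 0.65 ± 0.31, adjusted p = 0.619). The arrays of each of these pairs did not overlap, which also held for 41.1% of all probe sets at 6 h in the MZ.

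The third comparison set the 1 h arrays against those of 3 and 6 h on the same medium. Of the 12 members, 2 were lower at 1 h on H2O2 and 2 on control medium, and 0 were higher. On H2O2 5.85% of all probe sets were called, 2.87% as lower, and on control medium 1.51% were called, 0.712% as lower. They were the same genes on both media, the HSP70 gene AT3G09440 and the mitochondrial small HSP AT5G51440. A call of lower on both media was made for 0.497% of all probe sets. H2O2 arrays and control arrays are separate samples, so these comparisons share no array. On control medium 1 more gene was called lower with an array left out, Hsp70-2 without replicate 2 of the MZ at 3 h (log2 −0.76, adjusted p = 0.0364) or Fes1A without replicate 1 of the EZ at 1 h (log2 −0.58, adjusted p = 0.0493).

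AT3G09440 fell to 801 and 540 in the EZ at 1 h on H2O2, against 1615 to 2058 at 3 and 6 h. On control medium it had 1256 and 569 in the EZ at 1 h, against 2128 to 2727 later. Its MZ signals were 1776 and 1458 at 1 h on H2O2 against 1797 to 2825 later, and 2234 and 1180 at 1 h on control medium against 3517 to 4328 later. In each zone and medium both 1 h arrays were below all 4 later arrays, though by a narrow margin in the MZ on H2O2. Over both zones the gene was lower at 1 h by 2.05-fold on H2O2 (log2 −1.04 ± 0.18, adjusted p = 0.00120) and by 2.57-fold on control medium (log2 −1.36 ± 0.18, adjusted p = 4.08e-04).

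AT5G51440 had 18.6 and 9.61 in the MZ at 1 h on H2O2, against 57.2 to 79.1 at 3 and 6 h. On control medium it had 7.92 and 12.9 in the MZ at 1 h, against 34.5 to 94.9 later. In the EZ it had 14.8 and 18.4 at 1 h on H2O2 against 19.0 to 35.9 later, and 10.5 and 9.16 at 1 h on control medium against 14.7 to 46.4 later. Both 1 h arrays were again below the later ones in all 4 cases, with the wider gap in the MZ. Over both zones it was lower at 1 h by 1.93-fold on H2O2 (log2 −0.95 ± 0.17, adjusted p = 0.00116) and by 2.27-fold on control medium (log2 −1.19 ± 0.17, adjusted p = 7.09e-04). Several 1 h signals were under 16, so these folds are understated.

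**Figure D4:**
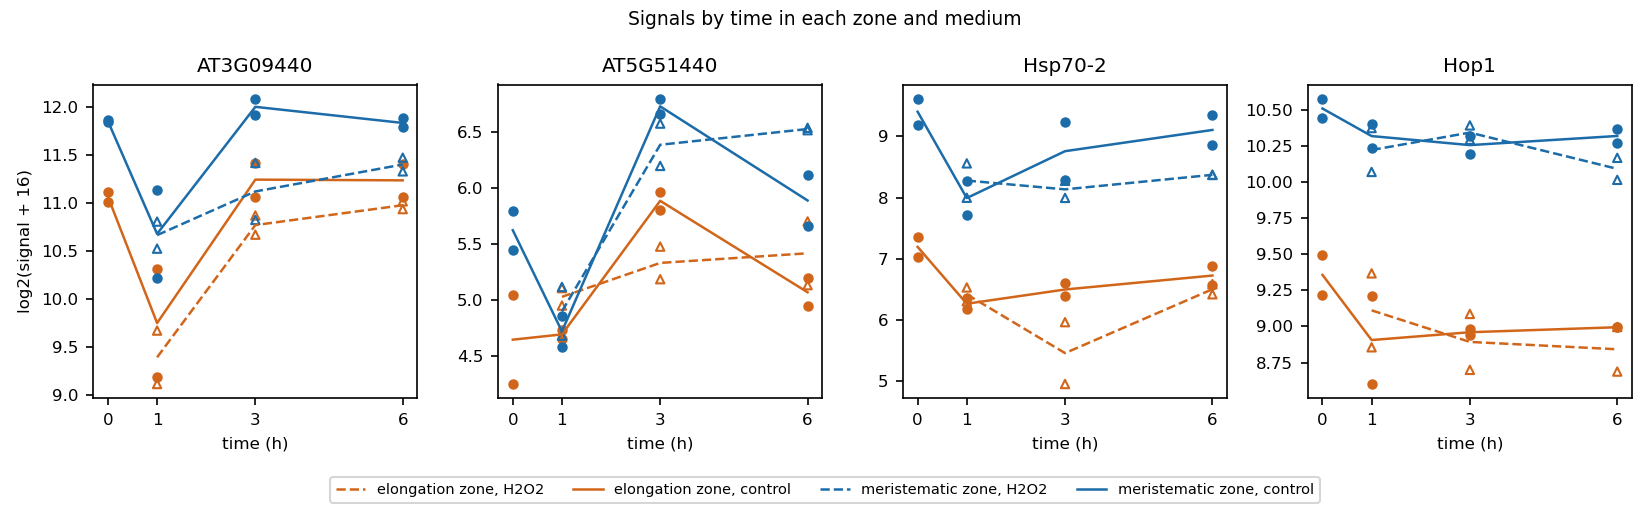
Signals of AT3G09440, AT5G51440, Hsp70-2 and Hop1, as log2(signal + 16), against the time in h, with points for arrays and lines through group means; the elongation zone is orange, the meristematic zone blue, H2O2 dashed with open triangles and control medium solid with filled circles. AT3G09440 and AT5G51440 are lower at 1 h than at 3 and 6 h on both media, while Hop1 keeps its zone difference at every time.

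Within each zone, the contrasts added after the values were seen gave unequal sizes. All probe sets were called at 2.62% on H2O2 and 0.4% on control medium in the EZ, and at 1.51% on H2O2 and 0.259% on control medium in the MZ. For AT5G51440 the log2 difference at 1 h was −0.35 ± 0.23 on H2O2 (adjusted p = 0.571) and −0.78 ± 0.23 on control medium (adjusted p = 0.199) in the EZ. In the MZ it was −1.56 ± 0.23 on H2O2 (adjusted p = 0.00102) and −1.59 ± 0.23 on control medium (adjusted p = 0.00444). For AT3G09440 it was −1.48 ± 0.26 on H2O2 (adjusted p = 0.00223) and −1.49 ± 0.26 on control medium (adjusted p = 0.00926) in the EZ. In the MZ it was −0.59 ± 0.26 on H2O2 (adjusted p = 0.364) and −1.24 ± 0.26 on control medium (adjusted p = 0.0471). The difference between the zones in this contrast was not tested. The MZ call of AT3G09440 on control medium was lost without replicate 2 at 1 h (adjusted p = 0.968), either replicate at 3 h (0.172 and 0.0748) or either at 6 h (0.141 and 0.104). Its EZ call was lost on control medium without replicate 2 at 1 h (adjusted p = 0.201) or replicate 1 at 6 h (0.0530), and on H2O2 without replicate 2 at 1 h (0.0885). The MZ call of AT5G51440 on control medium was lost without either 1 h array (adjusted p = 0.0625 and 0.136), and its MZ call on H2O2 was not lost in any setting run.

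Counts of members with 1 h arrays entirely below the later ones were 3 on H2O2 and 5 on control medium in the EZ, and 4 on each medium in the MZ. The background for that order was 11.1% on H2O2 and 6.8% on control medium in the EZ, and 10.8% on H2O2 and 9.67% on control medium in the MZ. Hop2 showed it in the EZ on both media, with 563 and 435 at 1 h on H2O2 against 647 to 846 later. Its 1 h difference over both zones did not pass on either medium (log2 −0.17 ± 0.13 on H2O2 and −0.23 ± 0.13 on control medium). AT4G21870 had the opposite order on H2O2, with 14.6 and 24.8 at 1 h against 1.70 to 11.6 later in the EZ. Its MZ signals were 38.6 and 46.9 at 1 h on H2O2 against 18.8 to 28.2 later, and the difference over both zones did not pass (log2 0.57 ± 0.20, adjusted p = 0.111). It passed when only the arrays compared were fitted (adjusted p = 0.0493). AT5G37670 also had the opposite order in the MZ on H2O2, with 24.4 and 19.9 at 1 h against 15.7 to 19.3 later. The opposite order was thus held by 1 of 12 members in the EZ on H2O2, beside 13.3% of all probe sets, and by 2 of 12 in the MZ, beside 12%. No member held it on control medium, but no share over all probe sets is given there, so the media are not compared by it.

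The 1 h difference did not differ between the media for any member at an adjusted p under 0.05, a call made for 0.0528% of all probe sets. The largest estimate of H2O2 minus control was that of Hsp70-2 (log2 0.87 ± 0.28, adjusted p = 0.518). Hsp70-2 had 361 and 240 in the MZ at 1 h on H2O2 against 239 to 316 later, and 294 and 194 at 1 h on control medium against 295 to 637 later. The 1 h arrays of Hsp70-2 were thus below the later ones on control medium and among or above them on H2O2. The GAPDH log2 ratio of the 1 h arrays was −0.20 to 0.09 on H2O2 and −0.13 to 0.32 on control medium in the EZ. It was 0.39 to 0.69 on H2O2 and 0.17 to 0.51 on control medium in the MZ. At 3 and 6 h it was −0.18 to 0.13 on H2O2 and −0.04 to 0.10 on control medium in the EZ, and 0.44 to 0.67 on H2O2 and 0.31 to 0.77 on control medium in the MZ. The dividing-cell sum in the EZ was 243 to 280 at 1 h against 133 to 187 later on H2O2, and 221 to 408 against 178 to 238 on control medium. Its MZ values were 1554 to 1673 at 1 h against 989 to 1306 later on H2O2, and 1457 to 1775 against 1092 to 1545 on control medium. The elongating-cell sum in the EZ was 11904 to 16377 at 1 h against 17036 to 19545 later on H2O2, and 15203 to 17722 against 16123 to 20219 on control medium. In the MZ it was 924 to 1180 at 1 h against 1045 to 1671 later on H2O2, and 881 to 1918 against 932 to 1036 on control medium. The root hair sum in the EZ was 61.2 to 64.1 at 1 h against 68.6 to 149 later on H2O2, and 73.1 to 80.8 against 110 to 152 on control medium, without overlap on either medium. Its MZ values were 24.0 to 27.5 at 1 h against 19.2 to 35.2 later on H2O2, and 23.6 to 34.3 against 21.0 to 51.1 on control medium. The part of these values in the 1 h result was not tested.

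Against the 0 h arrays, the 1 h control arrays gave fewer calls among the members. These are the same 1 h control arrays as in the comparison with later times, so the results are not separate. In the EZ AT3G09440 was lower at 1 h, with 1256 and 569 at 1 h and 2210 and 2046 at 0 h (log2 −1.31 ± 0.30, adjusted p = 0.0370). This was 1 of 12 members, where 1.22% of all probe sets were called and 0.646% were called lower. The call was lost without the second 1 h array (log2 −0.75, adjusted p = 0.383) and without either of the 0 h arrays (adjusted p = 0.346 and 0.0648). Without the first 1 h array it was kept, and Fes1A (log2 −1.03, adjusted p = 0.0225) and Hop1 (log2 −0.76, adjusted p = 0.0289) were called lower as well.

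In the MZ 0 of 12 members passed, with a background of 0.114%. The largest estimate there was that of Hsp70-2, which had 294 and 194 at 1 h and 769 and 569 at 0 h (log2 −1.41 ± 0.32, adjusted p = 0.0947). AT3G09440 had 2234 and 1180 at 1 h and 3646 and 3710 at 0 h (log2 −1.17 ± 0.30, adjusted p = 0.166). AT5G51440 had 7.92 and 12.9 at 1 h and 39.5 and 27.6 at 0 h (log2 −0.90 ± 0.27, adjusted p = 0.306). For all 3 genes both 1 h arrays were below both 0 h arrays, an order that 5 of the 12 members and 19.6% of all probe sets had in the MZ. In the EZ 6 of the 12 members and 18.5% of all probe sets had it. AT3G09440 was called lower without replicate 1 at 1 h (log2 −1.63, adjusted p = 0.0371). In the EZ AT5G51440 had 10.5 and 9.16 at 1 h and 2.99 and 16.9 at 0 h, all close to or under 16. Marker sums moved between these arrays too. The elongating-cell sum was 881 to 1918 at 1 h and 312 to 502 at 0 h in the MZ, where 1 of its 5 genes was called higher at 1 h, AT4G30170 (log2 2.07 ± 0.31, adjusted p = 0.00652). In the EZ it was 15203 to 17722 at 1 h and 11880 to 14603 at 0 h. The dividing-cell sum was 1457 to 1775 at 1 h and 1937 to 2139 at 0 h in the MZ, and 221 to 408 at 1 h and 329 to 346 at 0 h in the EZ. The root hair sum in the EZ was 73.1 to 80.8 at 1 h and 49.3 to 50.3 at 0 h, and in the MZ it was 23.6 to 34.3 at 1 h and 24.4 to 30.9 at 0 h. Their part in the 1 h values was not tested. Any handling of the 1 h control seedlings and the passing of time cannot be told apart here. Of a list of 10 touch, wound and handling genes 2 were measured, STZ and AT4G27280, and neither was called at 1 h against 0 h or against later times.

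Replicate number went with the level of some members. Replicate 1 was above replicate 2 in 13 of 14 groups for Hsp70-2, in 12 for AT3G09440 and in 12 for Fes1A, an excess of at least 12 groups that 3.89% of all probe sets showed. AT4G21870 ran the other way, with replicate 1 above replicate 2 in 1 group, and 4.77% of all probe sets had replicate 1 below in at least 12 groups. Hop3 had replicate 1 above in 11 groups, and Hop1 and Hop2 in 10 each. The labels do not say whether a number marks a shared day or batch. For Hsp70-2 the gap between replicates was wide in the MZ, with 587 and 295 in the 3 h control group and 769 and 569 in the 0 h control group.

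Other chaperone genes on the array were read to place the members. Lists of 84 further genes were drawn up for the cytosolic chaperonin, organelle chaperonins, Hsp40 and exchange factors, HSP90 co-chaperones, folding in the endoplasmic reticulum, heat stress transcription factors and other heat response genes, and 21 of the 84 were measured. None of the 24 heat stress transcription factors was measured. On control medium 12 of the 21 were lower in the EZ, 6 were higher and 3 did not pass, beside 32.3% lower and 26% higher over all probe sets. The counts on H2O2 were the same, beside 32.9% lower and 23.6% higher. Of the 12 lower genes, 8 encode subunits of 1 complex, the cytosolic chaperonin. H2O2 itself called 0 of the 21 in either zone, beside 0.506% of all probe sets in the EZ and 0.259% in the MZ.

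The cytosolic chaperonin CCT, a double ring that folds actin and tubulin, was lower in the EZ throughout. All 8 measured genes of 9 listed were lower in the EZ on both media. Their median log2 fold change was −1.11 on H2O2 and −1.02 on control medium. On control medium they ranged from −0.73 ± 0.08 for AT5G26360 (adjusted p = 7.07e-08) to −1.17 ± 0.11 for AT3G11830 (adjusted p = 5.47e-09). AT3G11830 had 1296 to 2780 (median 1647) in the EZ and 3580 to 4073 (median 3886) in the MZ. All 8 remained lower under each scaling that was run. Among the organelle chaperonins, the chloroplast-type subunit Cpn60beta2 was lower by 1.95 ± 0.17 on the log2 scale on control medium (adjusted p = 2.97e-09), with 320 to 1205 in the EZ and 1909 to 3333 in the MZ. Cpn60beta4 was lower too (log2 −0.92 ± 0.17, adjusted p = 7.29e-05). Its signals on control medium sat near the bottom of the scale, at 6.49 to 27.3 in the EZ and 25.2 to 87.2 in the MZ.

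HSP90 co-chaperones did not move in 1 direction. AT4G02450, a p23-type partner of HSP90, was lower in the EZ on control medium by 1.28 ± 0.08 on the log2 scale (adjusted p = 8.91e-12), and SGT1A, which works with HSP90 on immune receptors, by 0.91 ± 0.15 (adjusted p = 2.06e-05). AT5G48570, a heat-responsive immunophilin, was higher (log2 0.57 ± 0.10, adjusted p = 3.85e-05), with 119 to 191 in the EZ and 79.8 to 158 in the MZ. Genes of the endoplasmic reticulum were higher in the EZ in 3 of 4 cases. BZIP60 and BZIP28, the transcription factors of the unfolded protein response, had log2 differences of 1.05 ± 0.09 (adjusted p = 1.31e-09) and 0.61 ± 0.09 (adjusted p = 2.74e-06). CRT1b, a calreticulin, had 0.42 ± 0.08 (adjusted p = 8.21e-05), and the calnexin-type gene AT5G07340 did not pass (log2 0.08 ± 0.11, adjusted p = 0.556).

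Of the Hsp40 and exchange factor list, ATERDJ3B, an Hsp40 of the endoplasmic reticulum, was higher in the EZ (log2 0.65 ± 0.08, adjusted p = 2.89e-07). AT4G16660, an HSP70-type exchange factor, was higher as well (log2 0.46 ± 0.11, adjusted p = 0.00114), and AT1G11660 did not pass (log2 0.04 ± 0.06, adjusted p = 0.645). HSA32, a gene of heat acclimation memory, did not pass either (log2 −0.03 ± 0.14, adjusted p = 0.887). Its signals on control medium were dim, at 22.1 to 42.1 in the EZ and 18.7 to 53.8 in the MZ. At 1 h against 3 and 6 h, ATERDJ3B was lower on H2O2 (log2 −0.33 ± 0.10, adjusted p = 0.0437) and on control medium (log2 −0.53 ± 0.10, adjusted p = 0.00670). AT5G07340 was lower at 1 h on control medium (log2 −0.60 ± 0.14, adjusted p = 0.0283) and did not pass on H2O2 (log2 −0.31 ± 0.14, adjusted p = 0.242). SGT1A was higher at 1 h on H2O2 (log2 0.64 ± 0.18, adjusted p = 0.0467) and did not pass on control medium (log2 0.04 ± 0.18, adjusted p = 0.960). The other 18 of the 21 did not pass in either 1 h comparison. Of all probe sets, 5.85% were called at 1 h on H2O2 and 1.51% on control medium.

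**Figure D5:**
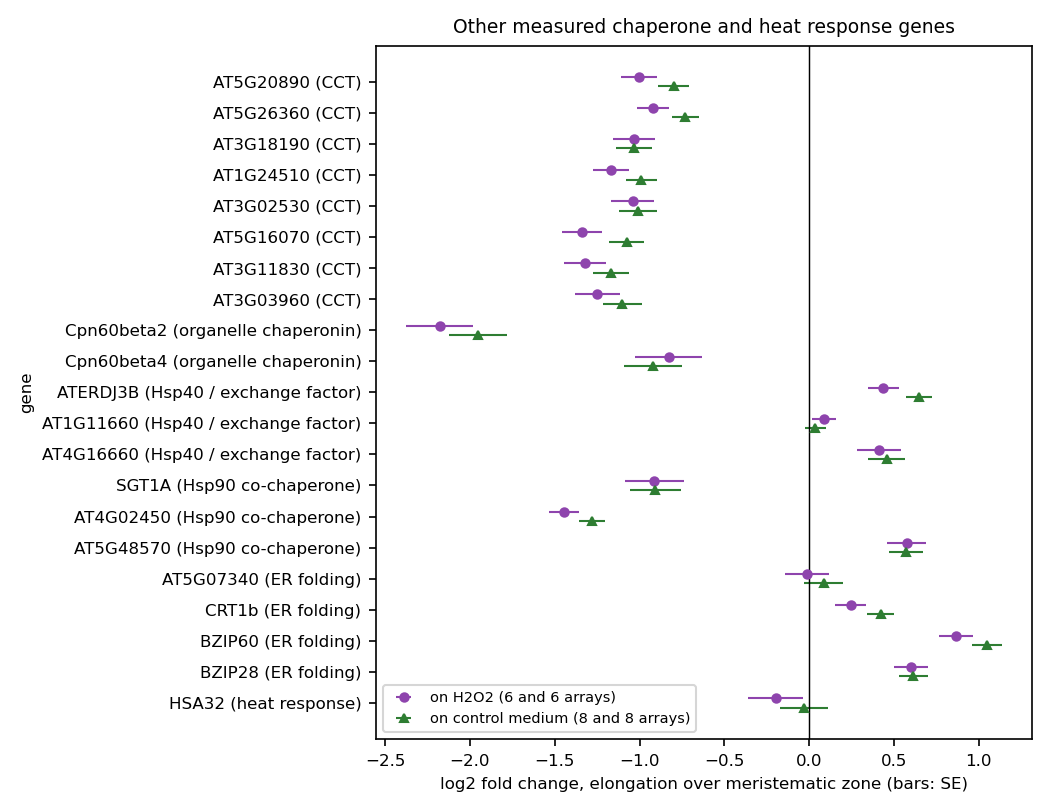
Log2 fold change, elongation over meristematic zone, of the 21 other measured chaperone and heat response genes, with bars of 1 SE, on H2O2 (circles) and on control medium (triangles). The 8 CCT genes and both organelle chaperonins lie left of 0, and BZIP60, BZIP28 and ATERDJ3B lie right of 0.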

How the data were processed

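Total RNA of hand-cut root zones was amplified, labelled with biotin and hybridised to Affymetrix ATH1 arrays. The deposited values are linear signal intensities, 1 per probe set and array, made with MAS5 or GCRMA, both of which appear in the submitters' processing notes. The trimmed mean, leaving out 2% at each end, was 250 on every array, so the intensities were used as the authors scaled them, without further normalisation or filter. After 64 control probe sets were left out, 22746 probe sets were tested on log2(signal + 16). One mean per group was fitted over all 28 arrays with limma 3.58.1 in R 4.3.3 (empirical Bayes with an intensity trend, 14 residual degrees of freedom). P-values were two-sided and adjusted by Benjamini-Hochberg over all probe sets within a contrast. A call means an adjusted p under 0.05, and ± is the standard error of the fit. Folds are on the log2(signal + 16) scale. Probe sets were named through the platform annotation and loci through the RefSeq gene table, which matched 13436 of 13513 probe sets with 1 gene. 503 probe sets had several genes and 8730 had none listed. All members were named, with values by array or range for called members and for the 3 largest estimates where none was called. Up to 3 genes of each other list were to be named by size of zone difference, and further ones were named after their values were seen. The members, lists and tests were chosen with earlier results of these data known. The script was tested on simulated data. Alternatives covered pseudocounts of 1 and 64, a floor of 16, a filter at a mean signal of 32, quantile normalisation, median centring, no trend, fits on the compared arrays, a replicate block and single arrays left out.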

Additional observations from a re-analysis of the deposited data

How the results depend on the processing

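On H2O2 between zones, median centring left 4 members called in place of 10. For H2O2 against control, leaving out both 1 h control arrays numbered 2 gave 1 call in each zone in place of 0, AT3G09440. With the replicate block, 1 call was gained among the single times, Hsp70-2 at 3 h in the elongation zone (adjusted p = 0.0258). In the contrasts added after the values were seen, the block called Hsp70-2 lower on H2O2 over 3 and 6 h in the elongation zone (adjusted p = 0.0408) and in the meristematic zone (adjusted p = 0.0293). Over both zones it called AT3G09440 (adjusted p = 0.0278) and Hsp70-2 (adjusted p = 0.0280) lower on H2O2. Leaving out both 1 h control arrays numbered 2, the lowest for AT3G09440, moved the estimate of that gene over both zones to log2 −0.57. Its lack of a call over both zones thus depended on these arrays. Within zones at 1 h against later on control medium, the 2 meristematic zone calls became 0 with only the arrays compared or without both arrays numbered 2, and 1 with quantile normalisation, no intensity trend or a floor of 16. The 1 elongation zone call became 0 with only the arrays compared (adjusted p = 0.464) or without both arrays numbered 2 (adjusted p = 0.0864). On H2O2 in the elongation zone the block called Hop2 as well (adjusted p = 0.0468). Leaving out 1 array gave 0 to 1 calls on control medium in each zone, and 0 to 1 in the elongation zone on H2O2. For 1 h against 0 h in the meristematic zone (0 calls), the block gave 2, Hsp70-2 (adjusted p = 0.00290) and AT3G09440 (adjusted p = 0.0204), and leaving out both arrays numbered 1 gave 1. In the elongation zone (1 call), the block and leaving out both arrays numbered 1 gave 3 each, while no intensity trend, only the arrays compared, a floor of 16 and leaving out both arrays numbered 2 gave 0. At 1 h against 3 and 6 h on control medium (2 calls), leaving out both 1 h arrays numbered 1 added calls in opposite directions. These were Fes1A lower (log2 −0.75) and AT4G21870 higher (log2 0.88). The block gave 3 there, with Hsp70-2 called lower (adjusted p = 0.00582), also within the meristematic zone (adjusted p = 0.0126), and on H2O2 it called AT4G21870 higher (adjusted p = 0.0439).

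Leaving out 1 array at a time gave 10 to 11 calls between zones on control medium and 9 to 10 on H2O2. It gave 0 to 0 for H2O2 in each zone, for the difference between zones and for single times. It gave 0 to 1 for 1 h against 0 h in the meristematic zone and 0 to 3 in the elongation zone. At 1 h against later times it gave 2 to 3 on control medium and 2 to 2 on H2O2. AT3G09440 and AT5G51440 stayed called at 1 h against 3 and 6 h, over both zones, in every setting run. For H2O2 averaged over both zones, a contrast outside the counts above, the lack of a call for AT3G09440 depended on single 1 h control arrays. Arrays with the same replicate number were not paired by the labels, and over 91 pairs of groups their deviations correlated at −0.11 to 0.44, with 45 over 0.1. No called value reversed. Signals near or under 16 limit what can be said of AT5G37670, ATHSP22.0, AT4G21870, AT5G51440 and AT1G53540.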
